A study of Mus musculus with 8 samples.

Results

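The transcripts of 10 antioxidant enzymes were compared between hearts of tumor-bearing mice and hearts of vehicle-injected mice. They were the superoxide dismutases Sod1 and Sod2, catalase (Cat), the glutathione peroxidases Gpx1, Gpx3 and Gpx4, the peroxiredoxins Prdx3 and Prdx5, and the mitochondrial thioredoxin pair Txn2 and Txnrd2. They were taken from the count table by gene symbol, as a family chosen with earlier results of these data known. All 10 were found among the 43346 genes listed in the count table, each under 1 gene identifier, and all 10 were among the 16111 genes with enough counts to be tested.

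The study asked what a growing tumor does to the heart. At 7 weeks of age, male C57BL/6 mice received 1000000 cells of LLC1, a mouse lung carcinoma line, or PBS vehicle alone by injection. The labels give the strain as C57BL/6, and the methods write C57BL/J6 and name the Jackson Laboratory as supplier. mRNA of the heart, which the study dissected to the ventricles, was sequenced 14 days later. There were 4 LLC1 mice (1-2, 1-3, 1-5 and 2-2) and 4 PBS mice (1-1, 1-3, 2-1 and 2-5), each 1 library, and only males were sequenced.

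Superoxide leaks from the respiratory chain and from oxidases, and the superoxide dismutases convert it to hydrogen peroxide. Catalase, the glutathione peroxidases and the peroxiredoxins then remove the peroxide, each family with its own source of electrons. Glutathione peroxidases use glutathione, while the mitochondrial peroxiredoxins are reduced by thioredoxin 2, which thioredoxin reductase 2 recharges with NADPH. The heart beats on mitochondrial respiration, and much of this defense therefore sits in or beside its mitochondria.

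Sod1 and Gpx3 rose in tumor-bearing hearts and were the only members to pass the test across all genes, at a false discovery rate (FDR) under 0.05 (edgeR quasi-likelihood F-test with Benjamini-Hochberg adjustment). Sod1 was 1.28-fold higher and Gpx3 was 1.29-fold higher. No member fell. The background share of called genes was 8.73% of all genes tested, with 4.12% higher and 4.61% lower, so 2 of 10 members called was not read as a difference from other genes. In 6 of 10 members every LLC1 mouse was above every PBS mouse, namely in Sod1, Gpx3, Cat, Prdx5, Txn2 and Txnrd2, and in CPM no member had the reverse order. On total counts alone, without TMM scaling, this held for 2 of 10 members, Sod1 and Gpx3, while the groups of Cat, Prdx5, Txn2 and Txnrd2 overlapped. With TMM scaling, 8.89% of all genes tested had every LLC1 mouse above every PBS mouse, and 17.2% had groups that did not overlap in either direction. These shares were not computed on total counts alone, so the 2 of 10 has no share over all genes to be set against. The median log2 fold change was 0.20 over the 10 members and -0.01 over all genes tested, with 8 members positive and 2 negative.

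**Figure D1:**
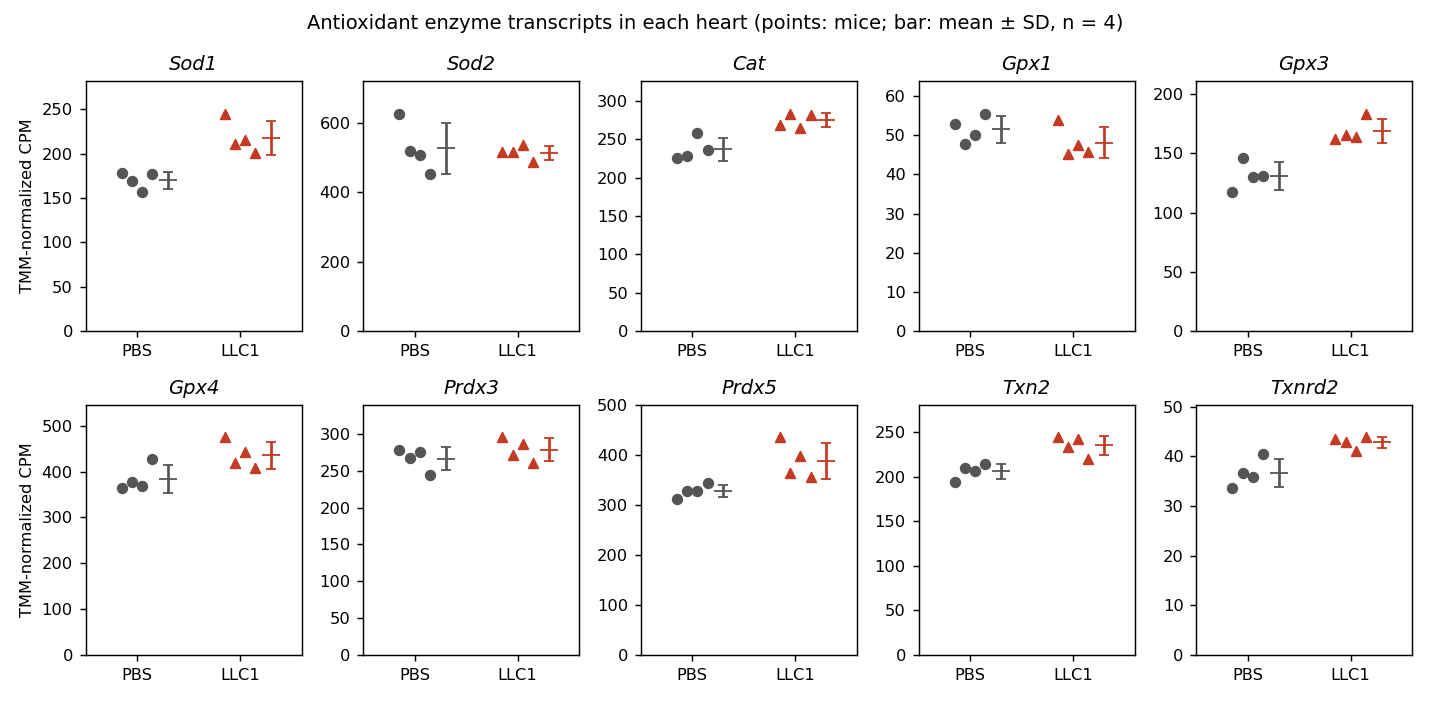
TMM-normalized read levels (CPM, vertical axes from 0) of the 10 antioxidant enzymes in each mouse, with 1 panel per gene, PBS mice as grey circles and LLC1 mice as red triangles, and bars for the mean ± SD of 4 mice. The LLC1 points lie wholly above the PBS points in the panels of Sod1, Cat, Gpx3, Prdx5, Txn2 and Txnrd2, while the points of Sod2, Gpx1, Gpx4 and Prdx3 overlap.

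**Figure D2:**
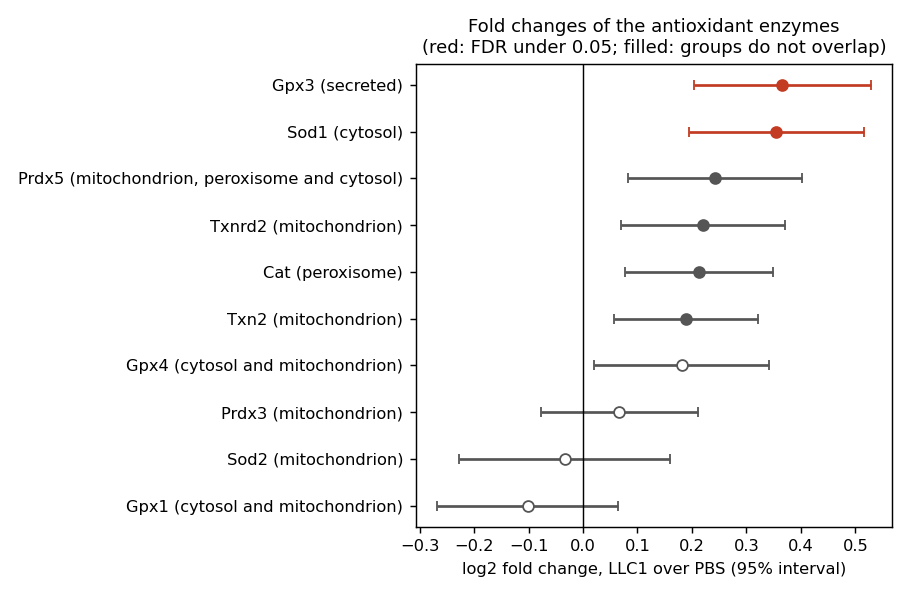
Log2 fold change of each member, LLC1 over PBS, with its 95% interval from the edgeR fit, ordered from the highest to the lowest, with the compartment of each enzyme beside its name. Red marks an FDR under 0.05 (Gpx3 and Sod1), filled points mark groups that did not overlap, and the intervals of Prdx3, Sod2 and Gpx1 span 0.

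Bulk RNA does not separate cells, so fewer cells of a type and less RNA per cell cannot be told apart here. The 5 cardiomyocyte markers (Myh6, Tnnt2, Actc1, Myl2 and Tnni3) summed to 85020 to 90810 CPM (read counts per 1000000 counts of the library, after TMM scaling, which sets libraries level on most genes) in the LLC1 mice and to 75630 to 77680 CPM in the PBS mice, with no overlap. Of these, 1 of 5 was called, Myh6, which was higher, and the log2 difference of the sum was 0.19. Myh6 made up most of the sum, with 54330 of 87450 CPM in LLC1 mice and 45870 of 76590 CPM in PBS mice, and Actc1 had a log2 fold change of -0.05. Set against that sum within each mouse, Sod1 kept the groups apart, with a log2 difference of 0.16, and Gpx3 had a difference of 0.18 with overlapping groups. On the same footing Cat, Prdx5, Txn2, Txnrd2 and Gpx4 lay between -0.01 and 0.05. Relative to the markers Gpx1 was at -0.29 with every LLC1 mouse below every PBS mouse, and Sod2 at -0.22 and Prdx3 at -0.12 had overlapping groups. The 5 smooth muscle and pericyte markers summed to 772 to 832 CPM in LLC1 mice and 879 to 1034 CPM in PBS mice, also without overlap. Of these, 0 of 5 were called, and each marker alone had overlapping groups. Rgs5 made up most of the sum, with 576 of 794 CPM in LLC1 mice and 664.5 of 938 CPM in PBS mice. Its log2 fold change was -0.21 (adjusted p = 0.113 in edgeR), and that of Myh11 was -0.03. Summed endothelial markers were 652 to 768 CPM against 757 to 1008 CPM, and 2 of 5 were called lower, Kdr (log2 fold change -0.61) and Emcn (-0.31). Summed fibroblast markers were 607 to 681 CPM against 639 to 738 CPM, and 2 of 5 were called lower, Lum (log2 fold change -0.62) and Col1a1 (-0.60). Dcn (0.07), Pdgfra (-0.07) and Tcf21 (-0.21) were not called. Dcn made up most of the fibroblast sum, with 436 of 639 CPM in LLC1 mice and 416 of 697.5 CPM in PBS mice. The macrophage and leukocyte markers were 76.3 to 90.6 CPM against 81.2 to 126 CPM, with 1 of 5 called lower, Ptprc (log2 fold change -0.77). The erythroid markers were 1428 to 5180 CPM against 1556 to 3097 CPM. The 4 neutrophil markers were at 1.76 to 2.63 CPM in LLC1 mice and 0.413 to 1.29 CPM in PBS mice, with Ly6g and Retnlg at or near 0 and with S100a8 and S100a9 called higher (log2 fold changes 1.76 and 1.72). The 5 adipocyte markers summed to at most 0.821 CPM in any mouse, with Ucp1 at 0 in all 8. The 4 atrial markers summed to 113 to 339 CPM against 123 to 249 CPM. Nppa made up nearly all of the atrial sum, with 197.1 of 199.8 CPM in LLC1 mice and 164.9 of 168.3 CPM in PBS mice. Myl7, Myl4 and Sln each had a mean of at most 2.41 CPM in either group. The part of cell makeup in the members' values was not tested.

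Sod1 encodes the copper and zinc superoxide dismutase of the cytosol. Its gene lies at chr16:90220742-90226322 on the plus strand (mm10, as in the deposited table). Its level was 245, 210.3, 215 and 200.5 CPM in the LLC1 mice 1-2, 1-3, 1-5 and 2-2, and 178, 169, 157 and 177 CPM in the PBS mice 1-1, 1-3, 2-1 and 2-5. All LLC1 mice were above all PBS mice, and LLC1 1-2 stood highest. The means were 218 ± 19.2 CPM (SD, n = 4) and 170.2 ± 9.67 CPM (SD, n = 4), which made a log2 fold change of 0.36 with an SE of 0.07 and an adjusted p of 0.0143 in edgeR. Without PBS 1-3 the adjusted p of Sod1 was 0.0543, while without any other single mouse it stayed below 0.05. Sod1 was the only member called when libraries were scaled to their total counts alone, with an adjusted p of 0.0312 in edgeR.

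With 646 bases, Sod1 is the shortest member in the deposited table, and length moved with the fold changes across all genes. Genes under 1000 bases had a median log2 fold change of 0.12, and 5.57% of them were called higher against 0.877% lower. Genes of 4000 bases or more had a median of -0.06, with 3.17% called higher and 6.75% lower. With offsets that remove this trend in each library, the log2 fold change of Sod1 was 0.23 with an adjusted p of 0.0365 in edgeR. Sod1 also has a processed pseudogene, Gm8566, whose transcript matched it at 97.8% identity over 465 bases. Gm8566 received counts equal to 8.85% to 12.1% of those of Sod1 and was itself higher in LLC1 mice (log2 fold change 0.57, adjusted p = 0.0141 in edgeR), so how reads were split between them is uncertain. With both genes counted as 1, the log2 difference was 0.37 and the groups were again apart (exact permutation p = 0.0286, the smallest that 70 arrangements can give).

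Sod2 encodes the manganese superoxide dismutase of the mitochondrial matrix (chr17:13007839-13018119, plus strand, mm10). It was at 516, 515, 536 and 486 CPM in the LLC1 mice and at 626, 518, 506 and 453 CPM in the PBS mice, in the same order of mice as above. The groups overlapped, and PBS 1-1 had both the highest Sod2 level and the smallest library. The log2 fold change was -0.03 with a 95% interval from -0.23 to 0.16 and an adjusted p of 0.85 in edgeR. The upper bound of that interval, 1.12-fold, lay below the 1.28-fold of Sod1. A transcript that GENCODE M21 gives to Sod2 and that runs past the deposited end of the gene matches Rps6ka2 at 98.3% identity over 3110 bases, and reads of that stretch are uncertain where they were counted. Without PBS 1-1 the value was 0.06, with an adjusted p of 0.596 in edgeR.

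The ratio of Sod1 to Sod2 counts within a mouse does not depend on how libraries are scaled. It does carry the trend with length, at 646 bases for Sod1 and 3824 for Sod2, and the uncertain reads of both genes. With length offsets the log2 fold changes were 0.23 for Sod1 and 0.0087 for Sod2, against 0.36 and -0.03 in the main fit. The ratio was 1 of 6 such ratios, all chosen after the values of the members were seen. It was 0.475, 0.408, 0.401 and 0.412 in the LLC1 mice and 0.284, 0.326, 0.310 and 0.391 in the PBS mice. Every LLC1 ratio was above every PBS ratio, with LLC1 1-5 and PBS 2-5 closest to each other. The ratio was 1.30-fold higher in tumor-bearing hearts (exact two-sided permutation p = 0.0286, the smallest possible), and the p over the 6 ratios compared was 0.0857 after Benjamini-Hochberg adjustment.

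The promoter sequences of both dismutases are shown because these genes encode the cytosolic and the mitochondrial form of 1 activity, of which the cytosolic form passed the test. They are the bases of the RefSeq window of 250 bases before the start that precede any exon start in the annotations used (GRCm38.p6, plus strand, 5′ to 3′), chr16:90220512-90220741 for Sod1 and chr17:13007589-13007816 for Sod2. Capitals mark a match to the core of the antioxidant response element, the site that NRF2 binds, here read on the opposite strand.
Sod1: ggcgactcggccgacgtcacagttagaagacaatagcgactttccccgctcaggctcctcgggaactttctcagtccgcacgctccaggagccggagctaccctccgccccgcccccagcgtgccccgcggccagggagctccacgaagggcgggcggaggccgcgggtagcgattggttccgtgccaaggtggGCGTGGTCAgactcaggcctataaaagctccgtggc
Sod2: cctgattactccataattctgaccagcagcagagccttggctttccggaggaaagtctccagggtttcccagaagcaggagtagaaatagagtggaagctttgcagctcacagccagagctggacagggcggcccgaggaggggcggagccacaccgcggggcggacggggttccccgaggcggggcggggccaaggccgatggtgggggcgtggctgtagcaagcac
Of the 4 motifs searched on both strands, the element core TGACNNNGC was found in 1 of 13 RefSeq windows of the 10 members, that of Sod1, starting 56 bases before the RefSeq start. The same core was in 10.2% of all 32851 windows in the table. The NRF1 site GCATGCGC was found in a window of Gpx4 and in 2.26% of all windows. The estrogen-related receptor half-site AAGGTCA (4.08% of all windows) and the FOXO site GTAAACA (3.17%) were found in no window of a member. The Sod1 stretch had 67.4% G and C with 24 CpG dinucleotides in 230 bases, and the Sod2 stretch had 64.0% with 13 in 228 bases. A match of letters is a description and shows no binding.

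Catalase, the peroxisomal enzyme that splits hydrogen peroxide without a cofactor to recharge, lies at chr2:103453849-103485160 on the minus strand (mm10). It was at 269, 283, 265 and 282 CPM in the LLC1 mice and at 226, 229, 258 and 235 CPM in the PBS mice. The groups did not overlap, and PBS 2-1 came nearest to the LLC1 mice. The log2 fold change was 0.21 with a 95% interval from 0.08 to 0.35, and the adjusted p of 0.0554 in edgeR missed the threshold. Without PBS 2-1 it was 0.0434, without each of the other mice it was from 0.0716 to 0.169, and DESeq2 gave 0.0144. On total counts alone the groups overlapped, with an adjusted p of 0.263 in edgeR.

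Gpx3, the secreted glutathione peroxidase of plasma and extracellular fluid, had a fold change close to that of Sod1 (chr11:54902453-54910377, plus strand, mm10). It was at 162, 165.5, 164 and 183 CPM in the LLC1 mice and at 117, 146, 130 and 131 CPM in the PBS mice. The groups did not overlap, LLC1 2-2 stood above its group and PBS 1-1 below its own. The means were 169 ± 9.85 CPM and 131 ± 11.7 CPM (SD, n = 4 each), which made a log2 fold change of 0.37 with an SE of 0.07 and an adjusted p of 0.0130 in edgeR. Gpx3 kept this call without any single mouse, with adjusted p-values from 0.0109 to 0.0446 in edgeR. On total counts alone its adjusted p was 0.0751 in edgeR, with the groups still apart.

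Gpx4, which reduces lipid peroxides within membranes, was at 474.5, 418.5, 442 and 407 CPM in the LLC1 mice and at 364, 377, 367 and 428 CPM in the PBS mice (chr10:80047166-80056439, plus strand, mm10). PBS 2-5 lay above 2 of the LLC1 mice, so the groups overlapped. The log2 fold change was 0.18 with a 95% interval from 0.02 to 0.34 and an adjusted p of 0.147 in edgeR. A pseudogene, Gpx4-ps2, shares 99.7% of 762 bases with Gpx4 and was not analysed here, so reads that fit both are uncertain. Gpx1, the general glutathione peroxidase of cytosol and mitochondria, was at 53.8, 45.2, 47.5 and 45.7 CPM in the LLC1 mice and at 52.9, 47.7, 50.0 and 55.5 CPM in the PBS mice (chr9:108338903-108340343, plus strand, mm10). The groups overlapped and the log2 fold change was -0.10 with a 95% interval from -0.27 to 0.06 and an adjusted p of 0.436 in edgeR.

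Ratios between the 3 glutathione peroxidases were compared within each mouse, and none passed after adjustment over the 6 ratios. The ratio of Gpx4 to Gpx1 counts was 8.82, 9.27, 9.30 and 8.91 in the LLC1 mice and 6.88, 7.90, 7.34 and 7.72 in the PBS mice. The groups were apart by 1.22-fold (exact permutation p = 0.0286, 0.0857 after adjustment over the 6 ratios), in a ratio for which neither gene alone was called. Gpx3 to Gpx1 was 3.54 ± 0.417 in LLC1 mice and 2.56 ± 0.368 in PBS mice (SD, n = 4 each, exact permutation p = 0.0571). The groups overlapped only through LLC1 1-2, at 3.02, and PBS 1-3, at 3.06. Gpx3 to Gpx4 overlapped more widely, with a difference of 1.14-fold (exact permutation p = 0.171).

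**Figure D3:**
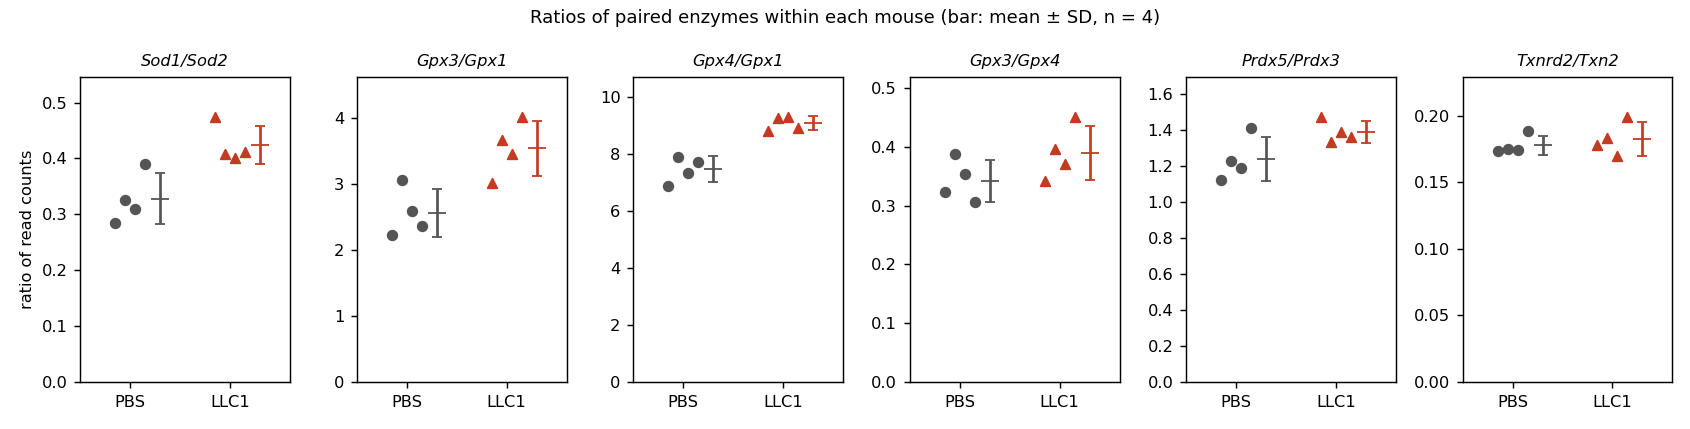
Ratios of the read counts of 6 pairs of members within each mouse (vertical axes from 0), PBS as grey circles and LLC1 as red triangles, with bars for the mean ± SD of 4 mice. The Sod1/Sod2 and Gpx4/Gpx1 ratios of the LLC1 mice lie above all those of the PBS mice, and the other 4 pairs overlap.

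Prdx3 and Prdx5 are the peroxiredoxins of the mitochondrion, and Prdx5 is also found in peroxisomes and cytosol. Prdx5 (chr19:6906697-6910106, minus strand, mm10) was at 435, 363, 398 and 355 CPM in the LLC1 mice and at 312, 328, 327.5 and 344 CPM in the PBS mice. The groups did not overlap, although LLC1 2-2 and PBS 2-5 were close. The log2 fold change was 0.24 with a 95% interval from 0.08 to 0.40 and an adjusted p of 0.0598 in edgeR. Of its exon bases, 19.1% are shared with Trmt112 on the opposite strand, a gene with 5.86% to 8.49% of the counts of Prdx5. The strand setting of the counts is not given in the sources used here, so reads in that stretch could belong to either gene. Prdx3 (chr19:60864051-60874556, minus strand, mm10) was at 295, 272, 287 and 261 CPM in the LLC1 mice and at 278, 267, 276 and 244 CPM in the PBS mice. The groups overlapped, with a log2 fold change of 0.07, a 95% interval from -0.08 to 0.21 and an adjusted p of 0.570 in edgeR. The ratio of Prdx5 to Prdx3 was 1.39 ± 0.0594 in LLC1 mice and 1.24 ± 0.122 in PBS mice, and PBS 2-5 put the groups into overlap (exact permutation p = 0.114).

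Txn2 and Txnrd2 form the mitochondrial thioredoxin system that recharges Prdx3. Txn2 (chr15:77915047-77929006, minus strand, mm10) was at 244, 234, 243 and 220.2 CPM in the LLC1 mice and at 194, 209.5, 206 and 214.5 CPM in the PBS mice. Txnrd2 (chr16:18426417-18479073, plus strand, mm10) was at 43.4, 42.8, 41.1 and 43.8 CPM in the LLC1 mice and at 33.7, 36.7, 35.9 and 40.4 CPM in the PBS mice. In both genes the groups did not overlap, with PBS 2-5 next to the LLC1 mice. The log2 fold change of Txn2 was 0.19 with a 95% interval from 0.06 to 0.32 and an adjusted p of 0.0741 in edgeR. That of Txnrd2 was 0.22 with a 95% interval from 0.07 to 0.37 and an adjusted p of 0.0702, which was 0.0302 without PBS 2-5 and from 0.0942 to 0.171 without each of the other mice. DESeq2 gave Txnrd2 an adjusted p of 0.0599, and on total counts alone it was 0.289 in edgeR. The ratio of Txnrd2 to Txn2 was 0.182 ± 0.0125 in LLC1 mice and 0.178 ± 0.00720 in PBS mice, with overlapping groups (exact permutation p = 0.629).

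Across members the mice were not equally high. Among the LLC1 mice, 1-2 had the highest level of 6 members (Sod1, Gpx1, Gpx4, Prdx3, Prdx5 and Txn2) and 2-2 had the lowest level of 6 (Sod1, Sod2, Gpx4, Prdx3, Prdx5 and Txn2), though 2-2 was highest for Gpx3 and Txnrd2. Among the PBS mice, 1-1 was lowest for 6 members and yet highest for Sod1, Sod2 and Prdx3. The labels do not say what the first number of a mouse's code stands for. Among mice with first number 1, all members except Sod2 and Gpx1 had a positive log2 difference, which was 0.36 for Sod1, 0.33 for Gpx3 and 0.26 for Cat. Among mice with first number 2, of which only 1 was an LLC1 mouse, the same members were at 0.27, 0.49 and 0.19, and Prdx5 was at 0.08 against 0.31 in the first set.

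Levels of different genes can be set side by side only per length, here CPM per kilobase of the gene length in the deposited table. In the PBS mice Sod1 stood highest at 263 ± 15.0 CPM per kb, followed by Gpx4 at 223 ± 17.4, Prdx3 at 180.1 ± 10.6, Prdx5 at 153 ± 5.96 and Sod2 at 137 ± 18.9 (SD, n = 4 each). Cat at 90.7 ± 5.64, Gpx3 at 72.2 ± 6.44, Txn2 at 49.0 ± 2.03, Gpx1 at 35.7 ± 2.35 and Txnrd2 at 10.9 ± 0.833 CPM per kb came below. The ranges of neighbours in this order were separate except for Sod1 and Gpx4, and for Prdx5 and Sod2. In the LLC1 mice the order was the same, with Sod1 at 337 ± 29.7 CPM per kb and Txnrd2 at 12.7 ± 0.351. There only Prdx3, at 188.5 ± 10.4 CPM per kb, and Prdx5, at 181 ± 17.1 CPM per kb, overlapped. The lengths of Sod1, Sod2 and Txnrd2 differ from those in GENCODE M21. It gives Sod1 3970 exon bases against 646, and Sod2 10008 against 3824, so both would stand lower per kilobase and their places depend on the annotation. Txnrd2, with 4401 against 3359 bases, would stay last. Together the 10 members took 0.250% to 0.263% of all counts in the LLC1 mice and 0.222% to 0.244% in the PBS mice.

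**Figure D4:**
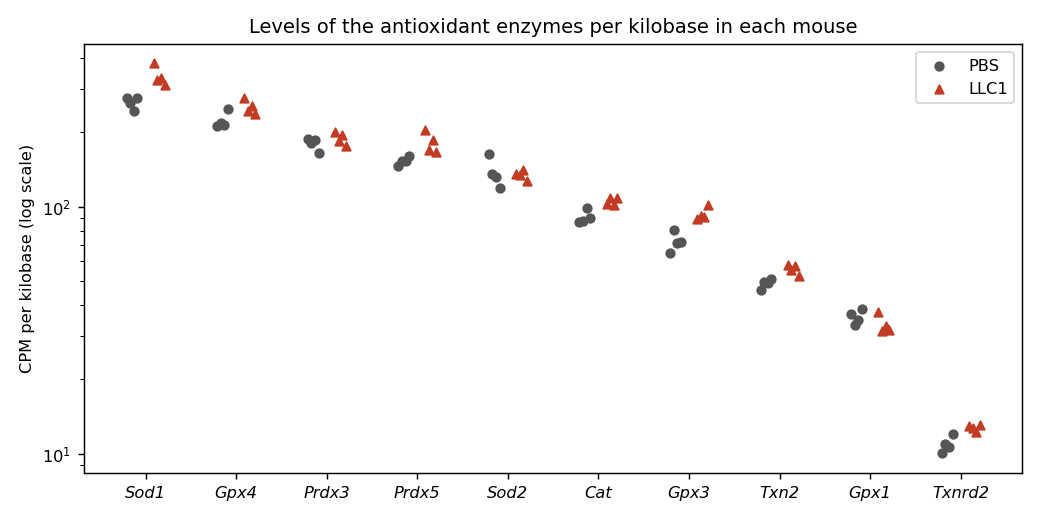
Level of each member per kilobase of gene length in each mouse (CPM per kilobase, log scale), ordered by the mean of the PBS mice, with PBS as grey circles and LLC1 as red triangles. The order runs from Sod1 to Txnrd2 in both groups, and the shift between groups within a gene is small beside the spread between genes.

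Among the other enzymes that handle superoxide and peroxide, 8 of 11 listed genes were tested, and 1 was called. That gene was Sod3, the extracellular superoxide dismutase, which fell in tumor-bearing hearts from 41.3 ± 3.65 CPM to 33.5 ± 2.08 CPM (SD, n = 4 each, log2 fold change -0.30, adjusted p = 0.0365 in edgeR), with overlapping groups. Its call was lost on total counts alone and without any 1 of LLC1 1-2, 1-3 and 1-5 and PBS 1-3, 2-1 and 2-5, with adjusted p-values up to 0.108 in edgeR. The cytosolic Prdx2 was at 332 ± 19.8 CPM in LLC1 mice and 306 ± 3.67 CPM in PBS mice, with groups apart but an adjusted p of 0.241 in edgeR. The cytosolic Prdx1 (log2 fold change -0.14) and Prdx6 (0.07) had adjusted p-values of 0.269 and 0.550 in edgeR. Gpx2, Gpx5 and Gpx6 had no count in any mouse. The median log2 fold change of the 8 genes was -0.17. The called share of this list was 12.5%, beside 8.73% of all genes tested, 4.12% higher and 4.61% lower. Whether this list or those below differed from that share was not tested.

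Of 16 other thioredoxin, glutaredoxin and methionine sulfoxide enzymes, 1 rose and 1 fell (12.5% called, beside 8.73% of all genes tested). Sesn1, a stress-induced sestrin, rose from 134 ± 7.66 CPM to 195 ± 7.50 CPM (log2 fold change 0.54, adjusted p = 0.000832 in edgeR). Srxn1, the sulfiredoxin that repairs overoxidized peroxiredoxins, fell from 24.8 ± 0.225 CPM to 19.2 ± 1.30 CPM (log2 fold change -0.36, adjusted p = 0.0132 in edgeR). The cytosolic pair Txn1 and Txnrd1 had log2 fold changes of -0.05 and -0.09, with adjusted p-values of 0.657 and 0.355 in edgeR. Txnip, which binds thioredoxin, varied widely, at 1042 ± 152 CPM in LLC1 mice and 900.1 ± 216 CPM in PBS mice (adjusted p = 0.410 in edgeR).

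Of the 27 genes of glutathione synthesis, recycling and transfer, 25 were tested, 4 rose and none fell, with a median log2 fold change of 0.11. The 4 were Mgst3 (0.50 on the log2 scale), Gstm1 (0.35), Gstm7 (0.30) and Gstp1 (0.24), all of which encode glutathione transferases or a related microsomal enzyme. Mgst3 kept its call without any single mouse and under every other processing tried. Gstm1 lost its call without any 1 of 3 mice (LLC1 1-2, LLC1 1-5 and PBS 1-3), Gstm7 without any 1 of 6 (these and LLC1 2-2, PBS 2-1 and PBS 2-5), and Gstp1 without any 1 of 7, all but PBS 2-5, with adjusted p-values up to 0.154 in edgeR. These 3 also lost their calls on total counts alone, and Gstp1 did so with upper-quartile factors, the filter of 10 counts in every mouse and length offsets. The enzymes that make and recycle glutathione were not among them. Gclc, the rate-limiting synthesis enzyme, was at 14.2 ± 0.851 and 13.9 ± 2.11 CPM in LLC1 and PBS mice, and Gsr, which reduces oxidized glutathione, at 17.1 ± 1.14 and 17.5 ± 2.07 CPM (adjusted p = 0.933 and 0.849 in edgeR). On total counts alone 1 gene of the list was called, and DESeq2 called 8.

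NADPH is the electron source of both systems, and 3 of 15 genes of its supply rose while none fell, each of the 3 with groups apart. Of all genes tested, 8.73% were called, 4.12% higher, and 17.2% had groups apart in either direction. Idh2, the mitochondrial NADP-dependent isocitrate dehydrogenase, rose from 1658 ± 81.5 CPM to 2417 ± 133 CPM (log2 fold change 0.54, adjusted p = 0.00111 in edgeR). Nnt, the transhydrogenase of the inner mitochondrial membrane, rose from 512 ± 35.2 CPM to 656 ± 19.4 CPM (log2 fold change 0.36, adjusted p = 0.00833 in edgeR). The C57BL/6J substrain is known for a deletion within Nnt, and the strain name and supplier in the methods point to that substrain. Counts per gene do not show which exons were read, so the Nnt value is a level of counts and says nothing of working enzyme. Me3, the mitochondrial NADP-dependent malic enzyme, rose from 81.0 ± 2.52 CPM to 99.5 ± 7.34 CPM (log2 fold change 0.30, adjusted p = 0.0185 in edgeR). The calls of Idh2 and Nnt held without any single mouse, and that of Me3 was lost without PBS 1-3 (adjusted p = 0.0740 in edgeR). Me3 also lost its call on total counts alone (adjusted p = 0.0686 in edgeR). The median over the 15 genes was 0.01.

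Of 18 regulators and targets of NRF2, the transcription factor that induces many antioxidant genes, 3 rose and 1 fell. The called share was 22.2% of this list, beside 8.73% of all genes tested. Nfe2l2, which encodes NRF2, was at 79.4 ± 3.55 CPM in LLC1 mice and 80.3 ± 8.80 CPM in PBS mice (adjusted p = 0.938 in edgeR). Keap1, its inhibitor, rose (log2 fold change 0.25, adjusted p = 0.0337 in edgeR), as did the ferritin heavy chain gene Fth1 (0.26, adjusted p = 0.0275) and the small MAF gene Mafk (0.33, adjusted p = 0.0442). Hmox1, the inducible heme oxygenase and a classical target, fell from 12.0 ± 2.31 CPM to 7.64 ± 0.382 CPM (log2 fold change -0.67, adjusted p = 0.0123 in edgeR). Nqo1, another target, was at 53.1 ± 4.28 and 48.4 ± 5.19 CPM (adjusted p = 0.381 in edgeR). Hmox1 kept its call without any single mouse, while Keap1, Fth1 and Mafk lost theirs on total counts alone, Fth1 also with length offsets, and without any 1 of the 4 LLC1 mice, PBS 1-3 and PBS 2-1. Their adjusted p-values in edgeR reached 0.138 with a mouse left out and 0.148 on total counts alone.

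Gpx1, Gpx3, Gpx4 and Txnrd2 are selenoproteins. Among 19 other selenoproteins and genes of selenoprotein synthesis, 0 were called by edgeR, and the lowest p-values belonged to Selenof (log2 fold change -0.26, adjusted p = 0.0703) and Dio2 (-0.80, adjusted p = 0.121). At an unadjusted p under 0.05 there were 4 of them, and DESeq2 and limma-voom called 0. On total counts alone edgeR called 1, and with the first number of the mouse code as a covariate it also called 1. Without LLC1 1-2, PBS 1-1 or PBS 2-5 edgeR called 1. Catalase works in the peroxisome. Of 28 genes of peroxisome biogenesis and beta-oxidation, 3 rose and none fell (10.7% called, beside 8.73% of all genes tested). Among the 3 were the membrane protein gene Pxmp2 (log2 fold change 0.38, adjusted p = 0.00801 in edgeR) and the biogenesis gene Pex16 (0.39, adjusted p = 0.0144). Pex16 lost its call without PBS 1-3 (adjusted p = 0.0589 in edgeR) and on total counts alone (0.0538), and Pxmp2 kept its call without any single mouse. The median over the 28 genes was 0.08.

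Of 19 genes of oxidant sources, 18 were tested, 2 rose and 1 fell, with a median log2 fold change of -0.21. The called share was 16.7% of those tested in the list, beside 8.73% of all genes tested. Xdh, xanthine dehydrogenase, rose from 110.1 ± 20.2 CPM to 179 ± 25.6 CPM (log2 fold change 0.70, adjusted p = 0.00854 in edgeR). Prodh, the mitochondrial proline dehydrogenase, rose from 44.8 ± 5.30 CPM to 60.0 ± 6.07 CPM (0.42, adjusted p = 0.0199). Nos2, the inducible nitric oxide synthase, fell from 19.9 ± 4.71 CPM to 12.9 ± 1.16 CPM (log2 fold change -0.63, adjusted p = 0.0256 in edgeR), with overlapping groups. The call of Xdh held without any single mouse. Nos2 lost its call without any 1 of 5 mice (LLC1 1-2, 1-3 and 1-5 and PBS 1-3 and 2-1) and Prodh without any 1 of 4 (LLC1 1-2, LLC1 1-5, PBS 1-3 and PBS 2-1), with adjusted p-values up to 0.0777 in edgeR. Prodh also lost its call on total counts alone (adjusted p = 0.0607 in edgeR).

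**Figure D5:**
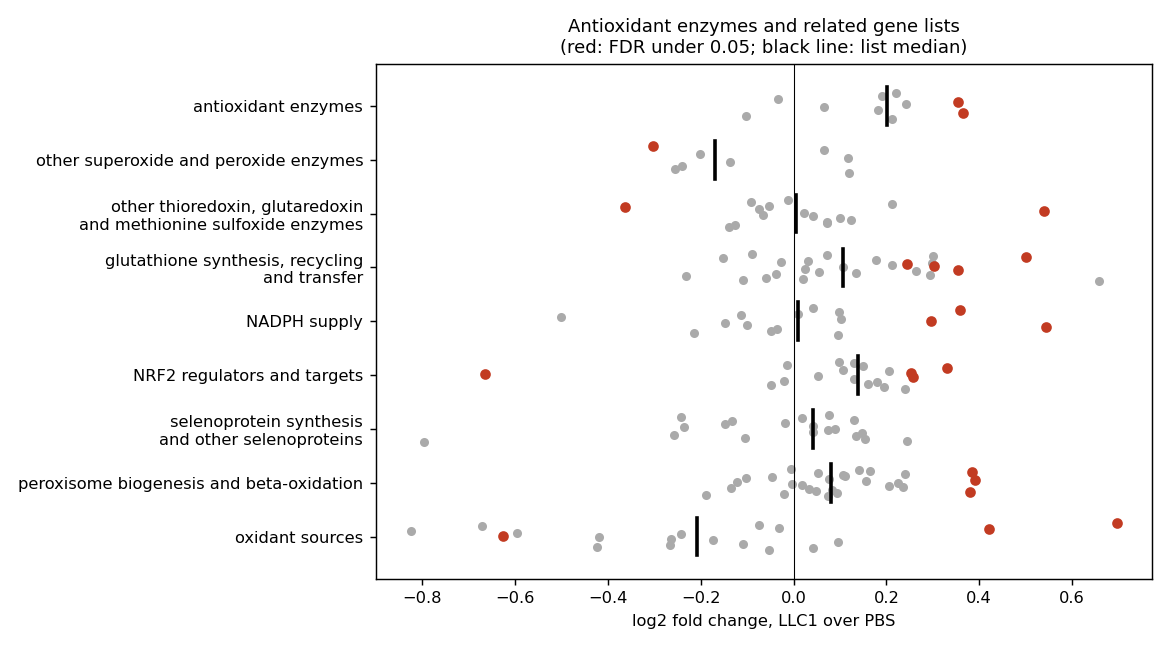
Log2 fold change, LLC1 over PBS, of each tested gene of the 10 antioxidant enzymes and of 8 related gene lists, with genes called at an FDR under 0.05 in red, others in grey, and the median of each list as a black line. The medians run from -0.21 for the oxidant sources to 0.20 for the antioxidant enzymes, and each list except that of selenoproteins holds called genes.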

How the data were processed

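Heart mRNA of 8 mice was sequenced from TruSeq libraries and mapped to mm10. The authors deposited whole-number read counts per gene, without normalization. The submitters' processing notes name CASAVA, STAR and featureCounts, while the annotation and strand setting are not given in the sources used here. Groups were taken from the stated treatment. Library totals ran from 12480706 to 19747596 counts, and 15963 of 43346 genes had no count.

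Counts were compared in R 4.3.3 with edgeR 4.0.16 (filterByExpr, TMM factors, quasi-likelihood F-test, Benjamini-Hochberg adjustment over all 16111 genes), and an FDR under 0.05 was a call. The SE was the absolute log2 fold change over the square root of F, and 95% intervals used the total degrees of freedom of the fit. CPM values are TMM-normalized, and the exact two-sided permutation test used log2 values (for CPM with a prior count of 2) over 70 arrangements of the mice. The common biological coefficient of variation was 0.109.

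Alternatives were DESeq2 1.42.0, limma-voom (limma 3.58.1), upper-quartile factors, total counts only, 2 other filters (at least 1 count in any mouse, or 10 in every mouse), a covariate for the first number of the mouse code, robust empirical Bayes, length offsets (loess span 0.3) and each mouse left out. The ratios, the comparison with cardiomyocyte markers and the sum of Sod1 and Gm8566 were chosen after seeing the data. Similar transcripts were searched in GENCODE M21 (at least 97% identity over 150 bases). The steps were tested on simulated data. Of the list genes, 12 were matched under another symbol that the table uses, among them Selenof (as Sep15) and Adgre1 (as Emr1).

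The members and lists were chosen with earlier results of these data known. All members were named, and from each other list the genes called, at most the 5 with the lowest FDR, or the 2 with the lowest p where none was called, plus Nnt, Nfe2l2, Keap1, Sod3, Prdx1, Prdx2, Prdx6, Txn1, Txnrd1, Gsr, Gclc, Nqo1, Hmox1 and Txnip. Genes that share reads with a member were named after their values were seen. Promoter sequences are from RefSeq (GRCm38.p6). A few genes that the naming rule takes are counted in their lists but not reported here by name.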

Additional observations from a re-analysis of the deposited data

Results flagged for a closer look

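In groups of 4 mice, the gap between an outermost mouse and its nearest neighbour was compared with the range of the group (Dixon's ratio, at its 95% critical value). Of 32 groups screened, 3 were flagged, and chance flags about 1 in 20 groups. The Gpx3 level of LLC1 2-2, 183 CPM against 162 to 165.5 CPM in the other LLC1 mice, had a ratio of 0.846. Without that mouse Gpx3 was still called (adjusted p = 0.0446 in edgeR). The Sod1/Sod2 ratio of LLC1 1-2, 0.475 against 0.401 to 0.412 in the others, had a ratio of 0.848. The Txnrd2/Txn2 ratio of PBS 2-5, 0.189 against 0.173 to 0.175 in the other PBS mice, had a ratio of 0.894. The causes were not tested.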

How the results depend on the processing

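The number of members called was 2 of 10 and became 5 with DESeq2 (Cat, Gpx3, Prdx5, Sod1 and Txn2), 4 with the first number of the mouse code as covariate (Cat, Gpx3, Sod1 and Txnrd2), 6 with length offsets (Cat, Gpx3, Prdx5, Sod1, Txn2 and Txnrd2) and 1 on total counts only (Sod1). It was 3 with all genes of at least 1 count, where Prdx5 was added. With 1 mouse left out it ranged from 1 to 3, with 1 without PBS 1-3 (Gpx3), and 3 without PBS 2-1 (Cat added) or PBS 2-5 (Txnrd2 added). Over all genes, 1406 calls were 1757 with DESeq2, 1681 with that covariate, 1594 with length offsets and 1018 on total counts only. They became 542 without PBS 1-3, 751 without LLC1 1-2, 634 without LLC1 1-3, 712 without LLC1 1-5 and 832 without LLC1 2-2, and the range was 542 to 1949. The split of calls, 663 higher and 743 lower, was 225 and 793 on total counts only and 975 and 619 with length offsets. The sign of Sod2 turned with length offsets (log2 fold change 0.0087) and without PBS 1-1 (0.061, from -0.10 to 0.061 over the mice left out), in both cases uncalled. On total counts alone, the exact permutation p was 0.0286 for Sod1 and Gpx3, 0.114 for Cat and Txnrd2, 0.0857 for Prdx5 and 0.0571 for Txn2. The causes were not tested. No paired analysis was possible because the groups share only 1 mouse code. With 4 mice a group, the median half-width of a 95% interval over all genes tested was 0.25 on the log2 scale, so smaller differences were often not detectable. Among the members, the SE ran from 0.06 for Txn2 to 0.09 for Sod2, whose 95% interval of -0.23 to 0.16 was the widest.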
